A study of Gallus gallus with 40 samples.

Results

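The ribosomal protein genes of the chicken liver were compared at 6 ages between birds bred for high growth (HG) and birds bred for low growth (LG). The members were all genes whose symbol in the platform annotation begins with RPL or RPS and a digit, or with RPLP0, RPLP1 or RPLP2, without the RPS6 kinases, and they numbered 47 of 6428 annotated genes. Of these, 17 were counted by symbol with the small and 30 with the large ribosomal subunit, on 78 spots of 72 cDNA probes. By their protein, 45 were core ribosomal proteins, and the other two, RPL7L1 and RPS19BP1, match by name alone. The HG birds came from a line of broiler chickens selected for high body weight at 8 and 32 weeks of age, and the LG birds from a line selected for low body weight at the same ages. Both lines were raised under a standard broiler protocol, and neither carried another treatment. Each 2-colour spotted cDNA array set HG liver against LG liver of the same age, with the dyes Alexa 555 and Alexa 647. There were 40 arrays. Weeks 1 and 3 had 12 apiece, and the later weeks 5, 7, 9 and 11 had 4 each. Within an age the dyes were balanced between the lines.

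A ribosome is built of ribosomal RNA and about one copy each of the ribosomal proteins, divided between a small subunit, which decodes the message, and a large subunit, which joins the amino acids. The messages of these proteins carry a tract of pyrimidines at their start (TOP messages), through which growth signals set their translation together. In liver, which makes most plasma proteins, ribosomes take a large share of the RNA of the cell, and their number is known to follow growth and feeding.

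Values are log2 ratios of HG over LG, so a positive value means higher in HG. The sources used here do not state which dye stands in the numerator of the deposited ratio. It was read as 647 over 555, the likely reading since the design text calls these dyes red and green, and each array was turned by the dye that HG carried. If it is 555 over 647, every sign below is reversed, and HG and LG change places. It is also not stated whether the ratios had been turned to HG over LG before deposit, and counts of calls, medians and the values of some genes on that reading are given after the values by gene. All values of single genes, except where that other reading is named, hold for ratios that had not been turned. The direction is therefore not settled.

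Replicates 3 and 4 at 3 weeks differed by less than 0.001 log2 on 97.8% of their 9493 shared spots (r = 0.99988, against 0.805 for the next closest pair), although their labels give opposite dye orientations. Both were left out, which left 38 arrays with 10 at 3 weeks. The lowest correlation between 2 arrays of the same dye orientation was -0.353, and a positive correlation with the line effect from the rest of their age was found for 21 of 38 arrays. Replicate 4 at 5 weeks had the lowest such correlation, -0.588, so results at 5 weeks are given with and without it. It was picked for its disagreement in these same values. Leaving it out therefore lowers the spread, and p-values without it describe the values and are no independent test. At 1 and 3 weeks the design text describes a later hybridisation that partly used the same birds again. Replicates 5 to 12 were taken to be that later round, which no label states. Which birds were used again is not given either, so p-values at these ages measure arrays and not birds. An array held values for 7291 to 13434 of 19200 spots. A ratio gives no level, so liver markers could not check the tissue here, although probes for 12 of 13 hepatocyte genes passed the filter.

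Testing required a value on 75% or more of the arrays at each age. This left 40 ribosomal protein probes for 31 genes, 9 of the small and 22 of the large subunit, among 6432 probes and 3181 genes in all. The small subunit genes were RPS2, RPS6, RPS10, RPS15A, RPS20, RPS21, RPS23, RPS19BP1 and a gene that the platform annotation calls RPS4Y1. The large subunit genes were RPL3, RPL4, RPL5, RPL6, RPL7, RPL7A, RPL8, RPL11, RPL13, RPL15, RPL19, RPL21, RPL23, RPL24, RPL30, RPL32, RPL34, RPL35, RPL35A, RPL39L, RPLP0 and RPLP1. Another 16 genes had too few values, namely RPS3, RPS3A, RPS7, RPS12, RPS14, RPS15, RPS24 and RPS28 of the small and RPL7L1, RPL10A, RPL12, RPL14, RPL17, RPL27, RPL31 and RPLP2 of the large subunit. The probes of RPS15 and RPL27 had no value on any array. A value on all 40 arrays was present for 35.9% of the member spots, compared with 21.7% of all spots. The symbols RPS4Y1 and RPL39L are those of mammalian paralogs of other ribosomal protein genes. Whether the chicken has another copy of either is not given in the sources used here. A spotted cDNA may bind related copies where they exist.

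With the ratios read as not turned, no ribosomal protein probe passed an adjusted p of 0.05 between HG and LG at any age (limma). The Benjamini-Hochberg adjustment was over all 6432 probes. Of all probes tested, the shares called at 1, 3, 5, 7, 9 and 11 weeks were 0.0155%, 0%, 0.777%, 2.91%, 0.84% and 0.389% in that order. The smallest adjusted p of a member was 0.0615, for RPS21 at 7 weeks. The count of 0 called members also came from the mean of late ages (5 to 11 weeks) minus the mean of 1 and 3 weeks, where 1.15% of all probes were called, and from the F test that the 6 age effects are equal, where 1.54% were called. With calls this rare among all probes, a count of 0 among 40 sets the members little apart from the rest. Read as already turned to HG over LG, and in some other settings, members were called, as given further below.

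On the reading used here, the 95% intervals at the early ages left room for small line differences only. They count arrays and not birds, and some birds were used again, which may make them too narrow. The spread shared by all ages, given below, works the other way at 1 and 3 weeks. At 1 week and at 3 weeks the 95% interval of all 40 probes lay within 1.5-fold in either direction, and no interval reached further than 1.35-fold at 1 week or 1.37-fold at 3 weeks. The intervals at the later ages were wider, and 31, 33, 35 and 34 of 40 probes stayed within 1.5-fold at 5, 7, 9 and 11 weeks. The widest, of an RPS6 probe at 5 weeks, extended to 2.74-fold. With the ratios read as already turned to HG over LG, the limits at the early ages do not hold. That RPS6 probe then read 0.576 at 1 week and 0.596 at 3 weeks (adjusted p = 0.0108 and 0.0225 by limma). All ages shared 1 estimate of the spread. In a fit of each age alone, with a line and a dye effect of its own, the members' median residual SD was 0.164, 0.145, 0.202, 0.331, 0.113 and 0.119 in order of age, highest at 7 weeks. In the shared fit it was 0.267. Standard errors and p-values at 7 weeks thus rest on a smaller spread than that age had. Those at the other ages rest on a larger one. With array weights members were called at 9 and 11 weeks, as given further below, while the fit of each age alone called no member.

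**Figure D1:**
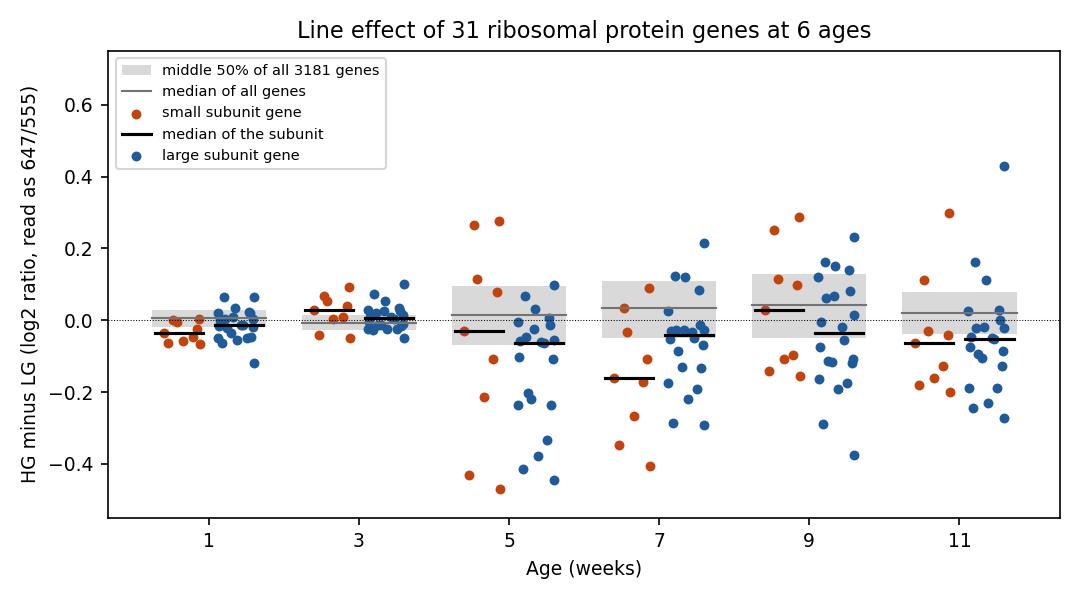
HG minus LG log2 ratio (vertical axis) of 9 small subunit and 22 large subunit genes at each age in weeks, 1 point per gene (mean of its probes), with the median of each subunit and the median and middle 50% of all 3181 genes. The points lie close to 0 at 1 and 3 weeks and spread out at 5 to 11 weeks, with 23, 24, 17 and 23 of 31 genes below 0.

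The small subunit genes had a median log2 ratio of -0.034 at 1 week and 0.027 at 3 weeks. From 5 to 11 weeks it was -0.030, -0.16, 0.029 and -0.063 in order of age. The large subunit genes had medians of -0.013, 0.0056, -0.062, -0.042, -0.036 and -0.051 at the same ages in order. Over all genes the medians were 0.0056, -0.0065, 0.014, 0.035, 0.044 and 0.021. Both subunits thus lay below the median of all genes at 1, 5, 7, 9 and 11 weeks and above it at 3 weeks, by less than the spread among the arrays at every age but 7 weeks for the small subunit. Without RPS19BP1, which is no core ribosomal protein, the small subunit medians of the other 8 genes were -0.041, 0.034, -0.069, -0.17, -0.034 and -0.084 at the 6 ages in order. At 9 weeks the sign of the small subunit median thus depended on that gene. The median late minus early difference of the 8 genes was -0.081, and -0.0040 with RPS19BP1.

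Negative values, which mean lower in HG, were found for 19 of 31 genes at 1 week and 12 of 31 at 3 weeks. Later the count was 23, 24, 17 and 23 at 5, 7, 9 and 11 weeks. Among all genes the negative share at the 6 ages in order was 43.3%, 58.1%, 44.8%, 38.5%, 37.7% and 39.9%. A value below 0 at all of 5, 7, 9 and 11 weeks was found for 14 of 31 member genes (45.2%), compared with 8.49% of all genes. These 14 were RPS6, RPS10, RPS20 and RPS23 of the small subunit and RPL5, RPL11, RPL13, RPL15, RPL19, RPL23, RPL34, RPL39L, RPLP0 and RPLP1 of the large subunit. Without replicate 4 at 5 weeks the count was 13 of 31 (41.9%), and 8.49% of all genes again, while 23 of 31 members and 36.4% of all genes were below 0 at 5 weeks alone. With the ratios read as already turned to HG over LG, 0 of 31 members and 11.8% of all genes were below 0 at all of these ages, and 8 members (25.8%) and 11.8% of all genes were above 0 at all of them. On the reading used here, RPS2 alone was above 0 at all 4 of these ages, as were 18.4% of all genes. This count was made after the values were seen, and none of the single values passed the adjusted test.

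**Figure D2:**
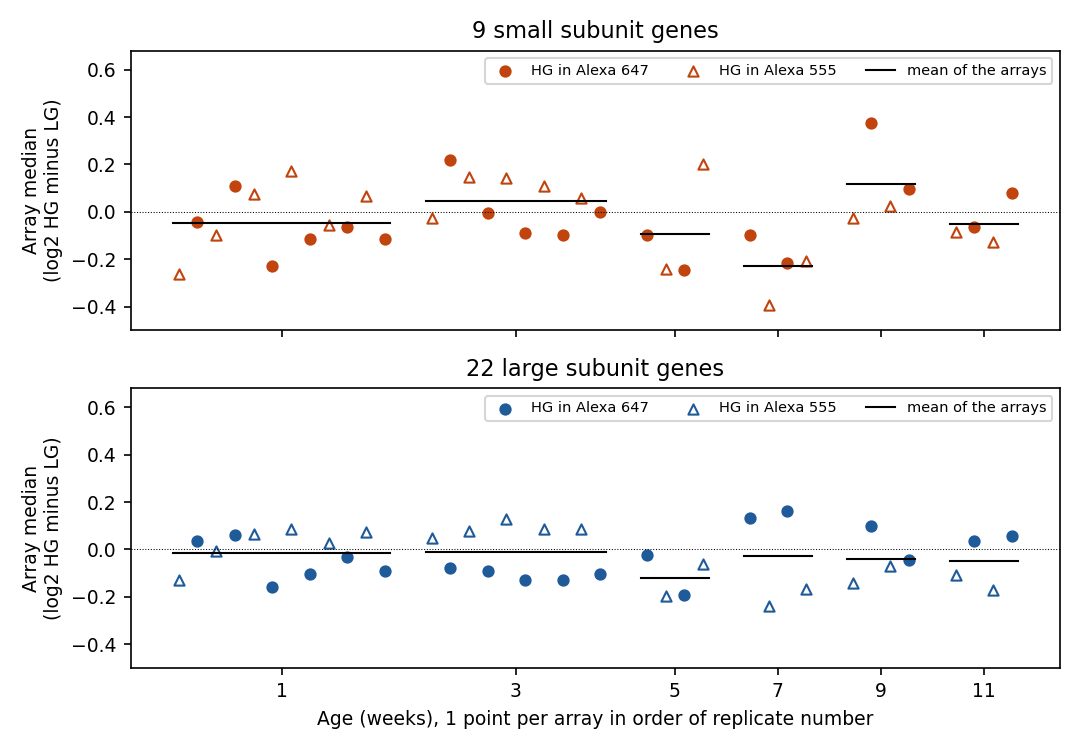
Median log2 ratio of HG minus LG over the small subunit genes (upper panel) and the large subunit genes (lower panel) on each of 38 arrays, ordered by age in weeks and replicate number, after each probe's dye effect was taken off. Filled circles are arrays with HG in Alexa 647, open triangles those with HG in Alexa 555, and lines are means of the arrays. At 3 weeks the large subunit median is below 0 on 5 of 5 arrays with HG in 647 and on 0 of 5 with HG in 555, while at 5 weeks it is below 0 on 4 of 4 arrays.

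Array by array, the members did not lie on the same side. The large subunit median was below 0 on all 4 arrays at 5 weeks, between -0.199 and -0.022, but on 2 of 4 at 7 weeks, 3 of 4 at 9 weeks and 2 of 4 at 11 weeks. The small subunit median was below 0 on all 4 arrays at 7 weeks, between -0.395 and -0.096, and on 3, 1 and 3 of 4 arrays at 5, 9 and 11 weeks. At 7 and 11 weeks the large subunit median was positive on both arrays with HG in Alexa 647 and negative on both with HG in Alexa 555. At 3 weeks the orientations split the other way, with the large subunit below 0 on all 5 arrays with HG in 647 and on none with HG in 555. These values had 1 dye effect shared by all ages taken off, with a median of 0.062 over the members. The members' median of the part shared by both orientations was 0.217 at 7 weeks and 0.094 at 11 weeks. It was -0.037 in replicates 5 to 12 at 3 weeks. What differs from the shared effect at an age stays in the array values, with opposite sign in each orientation. The part of the dye in these array values was not tested.

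RPS6, the small subunit protein that S6 kinases phosphorylate when mammalian cells receive growth signals, had the lowest value of the small subunit at 5 weeks. The mean of its probes was -0.097 and -0.207 on the arrays with HG in 647 and -0.946 and -0.626 on those with HG in 555. Other array values are given by replicate number, with HG in 647 on replicates 1 and 3 at 5 and 7 weeks and on replicates 2 and 4 at 9 and 11 weeks. The mean of the RPS6 probes was thus below 0 on all 4 arrays at 5 weeks, with the lower values on the arrays of one orientation. No single RPS6 probe was below 0 on all 4, the counts being 3, 3 and 2. The gene's log2 ratio was -0.47, a 1.38-fold lower level in HG, but its 3 probes read -0.88 (SE 0.28, adjusted p = 0.202), -0.41 (SE 0.20, adjusted p = 0.535) and -0.12 (SE 0.18, adjusted p = 0.936) by limma. The 3 probes disagreed by more than their standard errors. At 7 weeks the array values of RPS6 were 0.334, -0.656, 0.013 and -0.383, and they lay on both sides of 0. Its arrays at 9 weeks read -0.003, -0.206, 0.248 and -0.654, and those at 11 weeks 0.101, -0.497, 0.050 and -0.160. In the younger birds they ranged from -0.290 to 0.208 over 12 arrays at 1 week (median -0.062) and from -0.275 to 0.242 over 10 arrays at 3 weeks (median -0.018). HG and LG were therefore not set apart in RPS6 at the other ages.

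RPS23, a protein of the decoding site of the small subunit, was lowest beside RPS6 at 5 weeks. Its arrays read -1.003, -0.414, -1.242 and 0.938 at that age. Replicate 4 stood opposite to the other three, and the log2 ratio of -0.43 (SE 0.20) had an adjusted p of 0.526 (limma). Without replicate 4 it was -0.90 with an adjusted p of 0.000743 (limma), which is no independent test, since that array was picked for its disagreement. At 7 weeks RPS23 read -0.186, -0.480, -0.487 and -0.239, below 0 on every array, for a log2 ratio of -0.35 (SE 0.20, adjusted p = 0.554 by limma). Its values at 9 weeks, -0.581, 0.599, -0.502 and 0.095, followed the dye orientation, negative with HG in 555 and positive with HG in 647. At 11 weeks they were -0.661, -0.008, -0.605 and 0.470. Over the 12 arrays at 1 week RPS23 ranged from -0.402 to 0.334 (median -0.056) and over the 10 at 3 weeks from -0.135 to 0.253 (median 0.052).

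RPS21, a short protein of the small subunit, came closest to the threshold and changed sign between ages. At 7 weeks it read -0.203, -0.630, -0.589 and -0.206, below 0 on each array. At 9 weeks it read 0.125, 0.467, 0.037 and 0.516, and at 11 weeks 0.324, 0.380, 0.409 and 0.078. Arrays of 7 weeks did not overlap those of 9 or 11 weeks. RPS21 was picked from these same values, and the share of all genes whose arrays lie apart in this way was not counted. The log2 ratio was -0.41 (SE 0.12, adjusted p = 0.0615) at 7 weeks, 0.29 (SE 0.12, adjusted p = 0.380) at 9 weeks and 0.30 (SE 0.12, adjusted p = 0.827) at 11 weeks by limma. At 5 weeks its arrays, 0.299, -0.240, -0.698 and 0.518, lay on both sides of 0. The ranges at 1 week (-0.377 to 0.222, median -0.124) and 3 weeks (-0.113 to 0.344, median 0.081) included 0 as well. The F test over the ages gave RPS21 the smallest adjusted p among the members, 0.0812 (limma), and it was the one member probe of 40 with an unadjusted p under 0.05, compared with 7.01% of all probes.

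RPS20, which sits in the head of the small subunit, had a small difference that was alike across the late ages. Its values were -0.164, -0.327, -0.079 and -0.287 at 5 weeks and 0.167, -0.130, -0.343 and -0.340 at 7 weeks. At 9 weeks they were -0.145, -0.163, 0.10 and -0.224, and at 11 weeks -0.065, -0.162, -0.236 and -0.176. Thus 14 of 16 late arrays were below 0. The late minus early log2 difference of RPS20 was -0.16 (SE 0.056, adjusted p = 0.247 by limma), the smallest adjusted p of any member in that contrast. That of RPS23 was -0.29 (SE 0.13, adjusted p = 0.537 by limma), with 12 of 16 late arrays below 0.

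**Figure D3:**
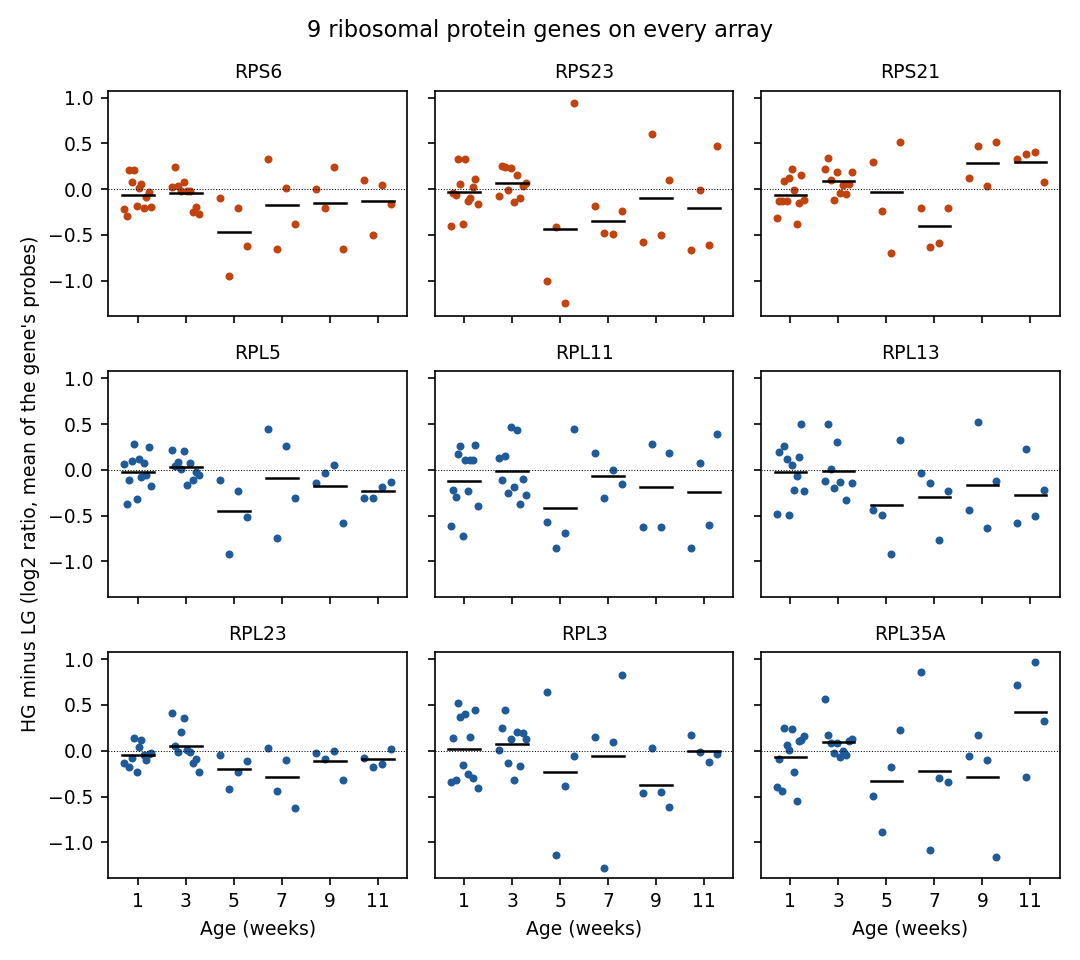
HG minus LG log2 ratio of 9 ribosomal protein genes (panels) against age in weeks, 1 point per array (mean of the gene's probes, after the dye effect was taken off) and a line at the fitted effect. RPS21 lies below 0 on all 4 arrays at 7 weeks and above 0 on all 4 at 9 and at 11 weeks, while most other genes have arrays on both sides of 0 at most ages.

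Among large subunit proteins, RPL5 and RPL11 bind a small ribosomal RNA together and, in mammals, hold back MDM2 when ribosome assembly is disturbed. RPL5 read -0.111, -0.914, -0.232 and -0.517 on the arrays at 5 weeks. These means of its 2 probes were all below 0, for a gene value of -0.44. The probe with the larger difference read -0.74 (SE 0.21, adjusted p = 0.109 by limma) and was below 0 on 3 of 4 arrays. The other read -0.15 (SE 0.17, adjusted p = 0.892 by limma) and was below 0 on 2 of 4. RPL5 at 7 weeks read 0.45, -0.746, 0.263 and -0.304, positive with HG in 647 and negative with HG in 555. At 9 weeks its arrays were -0.140, -0.039, 0.056 and -0.578, and at 11 weeks -0.307, -0.311, -0.181 and -0.127, again all below 0. By probe, 4 and 3 of 4 arrays were below 0 at 11 weeks. The late minus early difference of RPL5 was -0.24 over its probes, with 13 of 16 late arrays below 0. RPL11 read -0.568, -0.849, -0.688 and 0.45 at 5 weeks, where replicate 4 stood opposite to the rest as in RPS23. Its log2 ratio there was -0.41 (SE 0.19, adjusted p = 0.519 by limma), and -0.71 without replicate 4 (adjusted p = 0.0152). At 7 weeks RPL11 read 0.188, -0.303, -0.006 and -0.155. At 9 weeks RPL11 read -0.620, 0.286, -0.618 and 0.189 and at 11 weeks -0.850, 0.081, -0.597 and 0.390, so that its sign followed the dye of HG at both ages.

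RPL13, a protein of the large subunit body, was below 0 on all 4 arrays at 7 weeks, with -0.032, -0.146, -0.762 and -0.229. The log2 ratio was -0.29 (SE 0.18, adjusted p = 0.595 by limma). At 5 weeks it read -0.435, -0.488, -0.919 and 0.330. At 9 weeks it read -0.435, 0.528, -0.629 and -0.117. RPL13 averaged -0.27 at 11 weeks (SE 0.18), with -0.581, 0.224, -0.503 and -0.223. Its late minus early difference was -0.26 (SE 0.12, adjusted p = 0.548 by limma), below 0 on 13 of 16 late arrays.

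RPL23, which lies at the face between the subunits, read 0.028, -0.441, -0.104 and -0.623 at 7 weeks. One of these 4 arrays was just above 0, and the log2 ratio was -0.28 (SE 0.093, adjusted p = 0.101 by limma). At 5 weeks RPL23 was -0.049, -0.419, -0.229 and -0.112, at 9 weeks -0.023, -0.087, -0.001 and -0.322, and at 11 weeks -0.076, -0.179, -0.142 and 0.016. With 14 of 16 late arrays below 0, the late minus early difference was -0.18 (SE 0.062, adjusted p = 0.264 by limma).

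RPL3, a protein near the peptidyl transferase centre, had the lowest value of the large subunit at 9 weeks. The arrays read -0.458, 0.032, -0.454 and -0.620, for a log2 ratio of -0.37 (SE 0.21, adjusted p = 0.481 by limma). At 7 weeks RPL3 spread from -1.276 to 0.825 over 4 arrays, and no line difference could be read from it. Its arrays read 0.637, -1.14, -0.381 and -0.061 at 5 weeks and 0.175, -0.009, -0.120 and -0.040 at 11 weeks. RPL35A read 0.715, -0.292, 0.966 and 0.323 at 11 weeks, a log2 ratio of 0.43 (SE 0.20, adjusted p = 0.9997 by limma), and this was the highest value of a member gene at that age. At 9 weeks RPL35A was -0.060, 0.170, -0.104 and -1.162, so that its ratio of -0.29 (SE 0.20) rested on 1 array, and without replicate 4 it was 0.013. The ratio of RPL35A was -0.33 (SE 0.20) at 5 weeks and -0.22 (SE 0.20) at 7 weeks, with 1 of 4 arrays above 0 each time. HG and LG thus did not separate in either gene beyond the spread of the arrays.

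The stalk proteins RPLP0 and RPLP1, which recruit the elongation factors to the large subunit, had gene values of -0.22 and -0.054 at 5 weeks. The probes of RPLP0 disagreed there, with -0.54 (SE 0.21) and 0.097. Between -0.117 and -0.013, their values at 7 to 11 weeks were small.

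At an unadjusted p under 0.05, 12 of 40 member probes stood out at 5 weeks, 10 lower and 2 higher in HG, compared with 8.85% of all probes. The 10 belonged to RPS6 with 2 probes, RPL5, RPLP0, RPS23, RPL11, RPL13, RPL39L, RPS20 and RPL23, and 4.06% of all probes were below 0 at this threshold. The higher ones were RPS2, at 0.28, and RPS19BP1, at 0.27. RPS19BP1 is named for binding RPS19 and is known in mammals as a regulator of SIRT1. At 7 weeks 6 member probes passed at that level (11.7% of all probes), 5 of them lower in HG (5.55%). At 9 weeks 1 did (11.4%), higher in HG, while 4.34% of all probes were lower. At 11 weeks 3 did (4.17%), 1 of them lower (2.38%). At 1 and 3 weeks 0 did, compared with 1.34% and 0.42% of all probes, or 1.06% and 0.249% on the lower side. In the late minus early contrast 7 of 40 did (8.58%), all with a lower value late (4.34%), while 33.9% of all genes and 20 of 31 members had a value below 0. The member share was thus above that of all probes at 5, 7 and 11 weeks and in late minus early. At 7 and 11 weeks it rested on 6 and 3 probes. It was below that of all probes at 1, 3 and 9 weeks, and it was not tested as a list.

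Replicate 4 at 5 weeks decided how many members passed the adjusted threshold at that age. Without it 7 of 40 member probes were called by limma, 6 lower and 1 higher in HG, while 14.7% of all probes were called too. The lower ones were RPL5 at -1.05, RPLP0 at -0.99, RPS23, RPL11, a probe of RPS6 at -0.70 (adjusted p = 0.0225) and RPL13 at -0.62, and the higher one was RPS19BP1 at 0.32. The members' share stood near that of all probes. With replicate 4 kept, 0.777% of all probes were called. Since that array was picked for disagreeing in these values, the calls without it are no independent test. RPS6 and RPL5 each also had a probe that turned positive without this array, at 0.30 and 0.21.

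**Figure D4:**
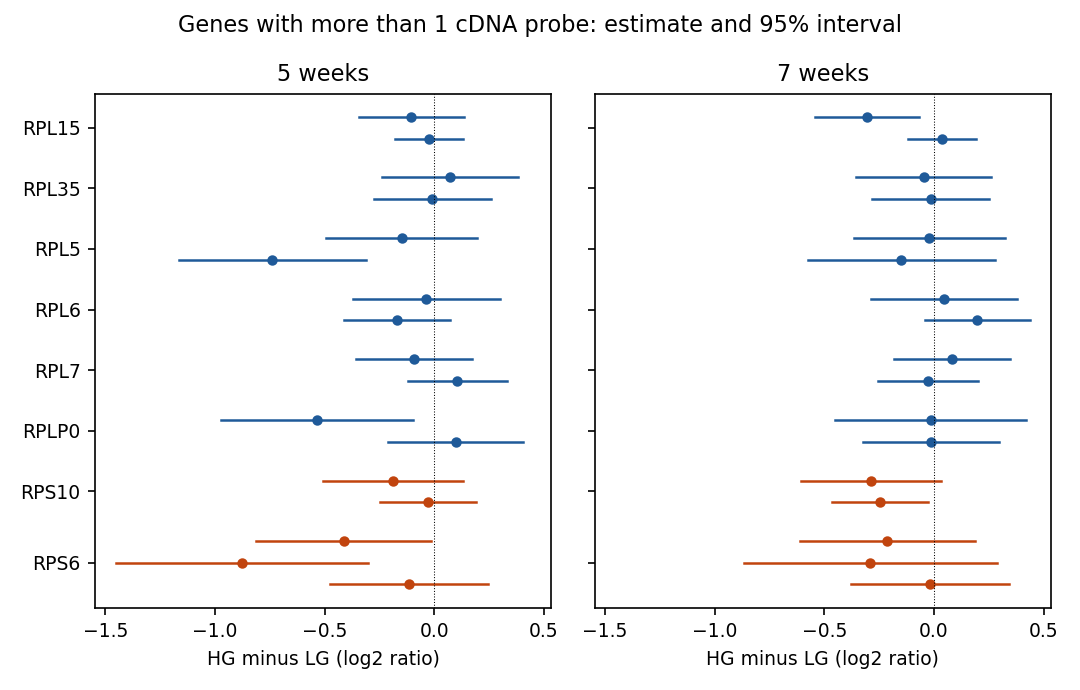
HG minus LG log2 ratio (points) with its 95% interval (lines) of each probe of the 8 genes that had more than 1 probe, at 5 weeks (left) and 7 weeks (right). RPS6, RPL5 and RPLP0 have probes of the same gene far apart at 5 weeks, with gaps of 0.76, 0.59 and 0.63, while the other genes' probes lie within 0.20 of each other.

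Several genes were read by more than one cDNA, which shows how far a gene's value depends on the probe. At 5 weeks the lowest and highest probe of a gene lay 0.76 apart in RPS6, 0.63 in RPLP0 and 0.59 in RPL5. For RPL7, RPS10, RPL6, RPL35 and RPL15 the gap was between 0.079 and 0.197. At 7 weeks the widest gap, 0.34, was that of RPL15, whose probes read -0.30 (SE 0.12, adjusted p = 0.213 by limma) and 0.039. Values of these genes are means of probes that did not always give the same difference.

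The ribosomal protein probes differed from the rest in the part of the ratio that does not turn with the dye of HG. The dye effect shared by all arrays had a median of 0.062 over the 40 member probes and was positive for 31 of them (77.5%), compared with a median of -0.0067 and 47.2% positive over all probes. The residual SD was 0.267 for members and 0.245 for all probes. By age and round the members' median of this shared part was 0.137 in replicates 1 to 4 at 1 week and 0.062 in replicates 1 and 2 at 3 weeks. From 5 to 11 weeks it was -0.0014, 0.217, 0.082 and 0.094 in order of age. In replicates 5 to 12 it was -0.030 at 1 week and -0.037 at 3 weeks. The medians of all probes lay between -0.026 and 0.047 throughout. The members' median ratio before turning was positive on 4 of 16 arrays of the assumed second round (replicates 5 to 12) and on 21 of 22 other arrays.

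**Figure D5:**
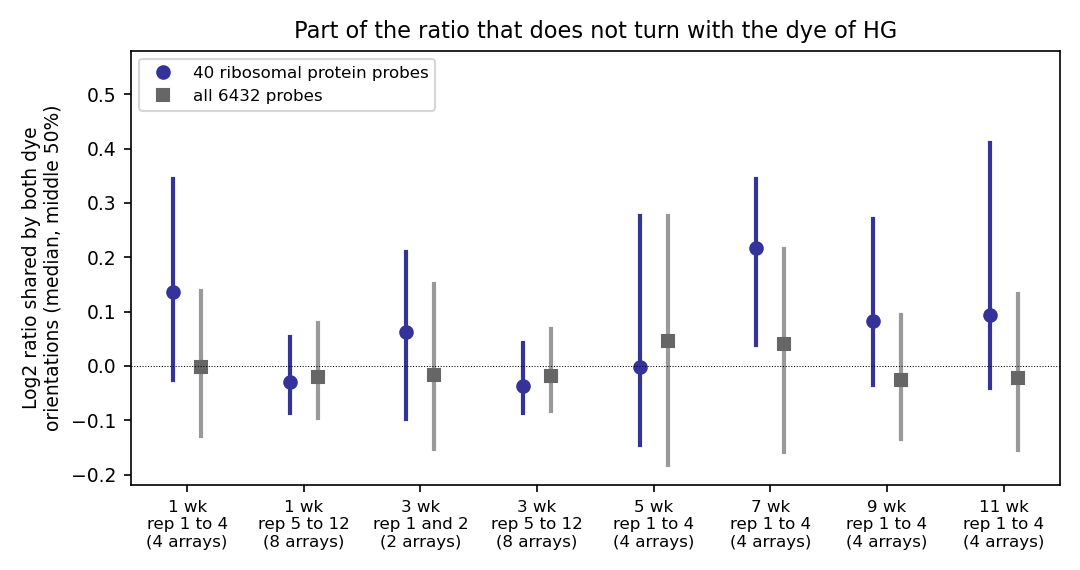
Part of the log2 ratio (read as 647 over 555) that both dye orientations share, as the median (marker) and middle 50% (bar) over 40 ribosomal protein probes and over all 6432 probes, by age and assumed hybridisation round. The members' median is 0.217 at 7 weeks and 0.137 in the first round at 1 week, and lies at -0.030 and -0.037 in the second round.

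This shared part would itself be the line difference if the ratios had been turned to HG over LG before deposit. On that reading 18 of 40 member probes were called at 7 weeks (35.3% of all probes), 15 of them higher in HG, and 17 at 5 weeks (48%). There were 3 (19.4%) and 6 (9.73%) in the youngest birds of 1 and 3 weeks, 8 (9.24%) and 11 (16.1%) in those of 9 and 11 weeks, and 12 in late minus early (19.9%). All called members at 9 and 11 weeks were higher in HG, and all of those in late minus early had a positive value. The calls at 1, 3 and 5 weeks went both ways. The medians at 7 weeks on that reading were 0.17 for the small and 0.20 for the large subunit. RPS23 read 0.64 at 9 weeks (adjusted p = 0.00677 by limma) and 0.63 at 11 weeks (adjusted p = 0.00433 by limma), both higher in HG, and -0.50 at 5 weeks (adjusted p = 0.00712 by limma), lower in HG. RPL11 read 0.63 at 9 weeks (adjusted p = 0.00684 by limma) and 0.68 at 11 weeks (adjusted p = 0.00182 by limma). At 5 weeks the probes of RPS6 read 1.08 (adjusted p = 0.00117 by limma), 0.72 (adjusted p = 2.59e-06 by limma) and -0.28 (adjusted p = 0.202 by limma). RPS21 was 0.042 at 7 weeks on that reading (adjusted p = 0.847 by limma). RPS23 and RPL11 at 9 and 11 weeks, and both of the called RPS6 probes at 5 weeks, thus lay above 0 on this reading and the gene values below 0 on the other. The direction of the members thus depends on how the deposited ratio was made.

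Other genes of translation were counted beside the members. Their values, and those of the cell markers after them, hold for ratios that had not been turned and are not given on the other reading. RACK1, a ribosomal protein with a symbol outside the pattern, was the one such gene with tested probes, and neither of its 2 probes was called at any age or passed an unadjusted p of 0.05. Among 22 other TOP messages 14 genes were tested and none of their 21 probes was called by limma, with at most 4 at an unadjusted p under 0.05 (5 weeks, 3 of them lower in HG). EEF1B2, a subunit of the factor that recharges the elongation factor, read -0.66 at 5 weeks (adjusted p = 0.202 by limma), and TPT1 -0.56 (adjusted p = 0.393 by limma). The median of the 14 genes was -0.068 at 5 weeks, -0.074 at 11 weeks and 0.017 at 7 weeks. Of these TOP genes, 5 (35.7%) were below 0 at all 4 late ages and 2 (14.3%) above 0. Among all genes these shares were 8.49% and 18.4%.

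Of 78 listed genes of ribosome biogenesis 22 were tested. PWP2, a protein of the complex that processes the small subunit RNA, was the one called, and it was lower in HG at 7 weeks (-1.67, SE 0.28, adjusted p = 0.000136 by limma) and in late minus early (-0.81, SE 0.18, adjusted p = 0.0168 by limma). Of all probes, 2.91% and 1.15% were called in these contrasts. None of 22 probes for 19 mitochondrial ribosomal proteins was called by limma, with at most 3 at an unadjusted p under 0.05 (9 weeks), and their median at 7 weeks was 0.0060. The mitochondrial list held 3 genes below 0 at all late ages (15.8%) and the biogenesis list 4 (18.2%), compared with 8.49% of all genes. Above 0 at all late ages were 4 mitochondrial (21.1%) and 6 biogenesis genes (27.3%), compared with 18.4% of all genes. Regulators of ribosome production were tested for TSC1, RHEB and LARP1, with no call. LARP1, which binds TOP messages, read 0.37 at 7 weeks (adjusted p = 0.0670 by limma).

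Markers of other cells were looked at beside these values. None of the 6 probes for 4 leukocyte genes, 11 probes for 8 matrix and vessel genes or the 1 bile duct probe was called by limma. At most 2 of a list had an unadjusted p under 0.05. Calls were rare among all probes too, at most 2.91% in a contrast. At 7 weeks the median was 0.085 for the leukocyte and 0.012 for the matrix and vessel genes, and the bile duct gene read 0.065. Of 18 hepatocyte probes 4 were higher and 2 lower in HG past the adjusted threshold at 7 weeks (2.91% of all probes), and the median of the 12 genes was -0.018. At 5 weeks 2 were lower (0.777%) and at 11 weeks 1 was higher (0.389%). In late minus early 2 were higher and 1 lower (1.15%). The erythroid gene HBBA was higher in HG at 7 weeks (0.86, SE 0.12, adjusted p = 1.63e-05 by limma), 1 of 4 erythroid genes tested, and the median of those genes was 0.23. At that age the small subunit median was at its lowest. The part of blood cells in the ribosomal protein values was not tested. In whole tissue, fewer cells of a type and less RNA per cell cannot be told apart.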

How the data were processed

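Liver RNA of HG and LG birds was measured on 40 arrays. The deposited values are linear dye ratios per spot, in the authors' table, with array medians between 0.966 and 1.015. The normalization, the scanner, the filter on spots and the numerator dye are not given in the sources used here. Per the labels' protocols, total RNA was reverse transcribed and labelled indirectly with the dyes. Probes were named by the platform annotation, whose symbols may be out of date.

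The log2 of each ratio was taken, spots of the same accession were averaged, and each probe was fitted over 38 arrays (R 4.3.3, limma 3.58.1, with lmFit and eBayes). The design had named all 40 arrays, and the near-identical pair at 3 weeks was left out. The model held a line effect per age and 1 dye effect. Tests were two-sided with Benjamini-Hochberg adjustment within each contrast, over all probes. The code was tested on simulated data. A gene is the mean of its probes, and array values have the probe's dye effect taken off. Single genes were described by a rule: at each age and for late minus early, per subunit, the 2 genes of largest absolute value whose sign was shared by 75% or more of the arrays, and the same genes at other ages. No gene met it at 1 and 3 weeks. Not every value of these genes is printed, those of the large subunit genes at 1 and 3 weeks among others. The members and lists were chosen with earlier results of these data known. Alternatives were other filters, scalings, dye terms, array weights, signs, probe choices, rounds and single arrays left out, and a replicate block. The number of arrays limits the precision.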

Additional observations from a re-analysis of the deposited data

Results flagged for a closer look

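RPS21 was lower in HG on all 4 arrays at 7 weeks and higher on all 4 arrays at 9 weeks, and the effects differed by 0.69 on the log2 scale. The same held for 11 weeks against 7 weeks, with a difference of 0.70. The pairwise differences were not tested, and the share of all genes with such a change was not counted. The F test over the 6 ages gave RPS21 an adjusted p of 0.0812 (limma). Among 26 groups of 4 arrays checked for a single array far from the others, 0 had one. With 4 arrays this check finds only a very wide gap (critical value 0.829). It cannot show that no value depends on 1 array, and RPL35A at 9 weeks did so.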

How the results depend on the processing

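The count of 0 called members held in most of the alternatives, and the exceptions follow. Reading the ratio as 555 over 647 turns signs alone, so it could not change a count. With values on at least 2 arrays of every age 1 probe was called at 5 weeks (RPL21, against 0.72% of all probes), and the large subunit median there was -0.158. A dye effect per age gave 1 at 5 weeks (1.71%), 4 at 7 weeks (5.85%) and 1 by the F test (3.22%), and a dye effect per age and round, chosen after seeing the data, gave 3 at 5 weeks (2.44%) and 5 at 7 weeks (6.76%). Array weights gave 4 at 5 weeks (8.94% of all probes), 8 at 9 weeks (22.6%), 13 at 11 weeks (7.84%, 12 of them lower in HG) and 5 in late minus early (8.27%), and a large subunit median of -0.164 at 11 weeks. Without 3 arrays named from earlier results of these data (replicates 1 and 2 at 3 weeks and 4 at 5 weeks) there were 7 at 5 weeks (14.8%), 1 at 7 weeks (3.98%), 1 in late minus early (2.61%) and 3 by the F test (3.75%). With those arrays turned there were 12 at 5 weeks (27.8%), 1 at 7 weeks (3.81%) and 1 in late minus early (2.72%). Read as already turned to HG over LG, the ratios gave 3, 6, 17, 18, 8 and 11 calls at the 6 ages and 12 in late minus early. On this reading the small subunit medians were 0.102 at 1 week, 0.171 at 7 weeks and 0.0882 at 11 weeks, and the large subunit ones 0.198 at 7, 0.113 at 9 and 0.166 at 11 weeks and 0.149 in late minus early. Read as 555 over 647, the medians were 0.0624 (large, 5 weeks), 0.162 (small, 7 weeks), 0.0630 (small, 11 weeks) and 0.0662 (large, late minus early). The replicate block changed only the F test among the counts, to 1 call (1.73%). Of 58 pairs of same-numbered arrays of different ages 37 correlated above 0.1 after the fit, with a median r of 0.184, against -0.0097 for different numbers. Since this did not hold for every pair, the numbers were not taken to pair samples, and the main fit treated arrays as independent. Same-numbered arrays were still correlated, at 0.136 in the replicate block. The late minus early and F tests of the main fit leave that correlation out.

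Leaving out 1 array at a time gave 0 to 7 calls at 5 weeks, 0 to 2 at 7 weeks, 0 at 9 and 11 weeks, 0 to 1 in late minus early (RPS23, without replicate 4 at 5 weeks, 3.08%) and 0 to 2 by the F test. At 7 weeks RPS21 (adjusted p = 0.0357, limma) and RPL23 (0.0172) were called without replicate 1 (5.75% of all probes), 1 probe of RPS10 without replicate 2 (3.67%) and RPL19 without replicate 3 (2.07%). The F test gave 1 call without replicate 3 at 5 weeks (1.65%) and 2 without replicate 4 (4.14%). The small subunit median ranged from -0.189 to 0.200 at 5 weeks, the highest without replicate 3, and from -0.154 to -0.042 at 11 weeks, the lowest without replicate 4. Some single values changed sign. At 5 weeks a probe of RPS6 read 0.296 without the 3 arrays and -0.408 to 0.295 with 1 array left out (highest without replicate 4), and one of RPL5 0.211 and -0.388 to 0.212. At 9 weeks a probe of RPS6 read 0.0104 with arrays scaled to the same spread and -0.279 to 0.323 with 1 array left out, with 0.0888 without replicate 2, and RPL35A -0.448 to 0.0126, both highest without replicate 4. The cause of these changes was not tested.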

Other observations

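Of the member probes left out by the filter, 15 for 13 genes had values on at least 2 arrays of every age, 8 of these genes having no other tested probe. They lay below 0 for 14 of 15 at 5 weeks (median -0.26), 13 at 7 weeks (-0.26), 15 at 9 weeks (-0.17) and 14 at 11 weeks (-0.24), for 11 at 1 week and for 0 at 3 weeks. Of all 2182 probes that this looser filter added, the share below 0 at 5, 7, 9 and 11 weeks in order was 49.8%, 48.3%, 52.5% and 51.4%, with medians between -0.0091 and 0.0041, and at 1 and 3 weeks it was 49.5% and 46%. RPL21 had such a probe at -0.81 at 5 weeks (adjusted p = 0.0352, limma), while its probe in the main test read -0.026. These probes rest on fewer arrays than the rest, and this look at them was chosen after the main values were seen.

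At some ages the members' values differed between probes whose sequence accession begins with BI06 and those with BI39. The split was made after seeing the data. No label says that these letters mark a cDNA collection, and the other member probes were not part of the split. Of 13 member probes whose accession begins with BI06, 12 were below 0 at 5 weeks (median -0.21) and 12 in late minus early (-0.16). Of 10 that begin with BI39, 6 were below 0 at 5 weeks (-0.019) and 4 in late minus early (0.040). The BI06 and BI39 members below 0 were 8 and 5 at 1 week and 5 and 4 at 3 weeks. They were 11 and 7 at 7 weeks, 10 and 4 at 9 weeks and 12 and 4 at 11 weeks. The split was thus less clear at 1, 3 and 7 weeks. All tested probes of the BI06 kind, 384 in number, had a median of 0.017 at 5 weeks and 0.035 in late minus early, with 45.3% and 33.3% below 0. All 916 of the BI39 kind had 0.00044 and 0.029, with 49.8% and 35.2% below 0. The median dye effect was 0.110 for the BI06 members and 0.019 for the BI39 members.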
